A study of Physcomitrium patens with 24 samples.

Results

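The moss *Physcomitrella patens* was heated, and 3 genes of the ubiquitin system were followed through the experiment. They are Pp3c12_18200, a polyubiquitin gene whose closest *Arabidopsis thaliana* match is a polyubiquitin 10-like gene, and 2 genes of the RING/U-box superfamily, Pp3c7_700 and Pp3c13_19370, whose closest Arabidopsis matches are PRT1 and a RING1-like ligase. The 3 genes were taken by identifier from the 32926 genes in the count files, and all 3 were among the 21429 genes with enough reads to be tested. The plants were 7-day-old protonemata (the filamentous stage) of the Gransden strain, grown on ammonium-containing medium under long days. Control cultures stayed at 24 °C, and the treated cultures were moved to 30 °C, a moderate heat, or to 37 °C, a severe heat. Samples were taken after 1, 6, 12 and 24 h, which gave 12 groups of 2 biological replicates and 24 libraries of messenger RNA. All groups shared the strain, medium and light regime, and the 30 °C and 37 °C groups of a time are compared with the same control libraries. The identity of the tissue was not checked against marker genes here.

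Ubiquitin is a small protein that cells attach to other proteins, most often to send them to the proteasome. Polyubiquitin genes encode several ubiquitin units in a row, which are cut apart after translation, and they are known in plants and animals as heat-inducible. An activating enzyme (E1) and a conjugating enzyme (E2) hand ubiquitin on, and a ligase (E3) chooses the protein to be marked. RING and U-box domains are the parts of a large class of ligases that bind the conjugating enzyme, whereas F-box proteins are the substrate receptors of a multi-subunit class. In Arabidopsis, PRT1 is a ligase of the N-degron pathway, which recognises proteins by their first amino acid. Heat shock factors are the transcription factors that switch on chaperone genes in heat by binding heat shock elements, which are inverted repeats of GAA and TTC.

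The study scanned sequence upstream of start codons for shared motifs in a group of genes with similar expression in these same libraries, and the resulting table of heat shock element-like sites lists both RING/U-box genes. The sites are shown because they are the only regulatory sequence of these genes used here. The 12 matched bases are in capitals inside a window of 32 bases, oriented as the table of sites gives them. The gene Pp3c25_1090, with a MIZ/SP-RING domain, and the SUMO-like gene Pp3c6_10360 are also in that table. Both are grouped with the ubiquitin system here by name alone. Pp3c12_18200 was not among the 49 genes of the table. The study searched only the highest-ranked genes of each such group, and whether Pp3c12_18200 was searched was not checked. Nothing is therefore read from its absence.
Pp3c7_700: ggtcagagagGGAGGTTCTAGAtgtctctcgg
Pp3c13_19370: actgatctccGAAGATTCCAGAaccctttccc
Pp3c25_1090: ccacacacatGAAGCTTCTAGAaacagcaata
Pp3c6_10360: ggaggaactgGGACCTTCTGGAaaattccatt
On either strand, the motif GAANNTTC was in the windows of Pp3c13_19370, Pp3c25_1090 and Pp3c6_10360 and not in that of Pp3c7_700. The same held for TTCNNGAA, which can overlap the first motif. Of all 67 windows in the table, 37.3% held the first motif and 32.8% held the second.

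Library totals ranged from 4552626 to 10696081 counts at 24 °C, from 4332911 to 9040288 at 30 °C and from 6358666 to 9102369 at 37 °C. Levels are given below as CPM, the usual count of reads per gene relative to library size, with library totals scaled by the trimmed mean of M-values. They take no account of gene length, so a level is compared between samples and not between genes. A gene is said to have risen or fallen where edgeR's quasi-likelihood test gave a Benjamini-Hochberg adjusted p under 0.05 and the log2 fold change was 1 or more in either direction. Reads were counted over whole genes without regard to strand, so that reads from an overlapping or antisense gene cannot be told apart from those of the gene named. The replicates of the 37 °C 1 h group differed more than those of any other group, with a chi-square of 42.6 per gene against 3 to 26.3 elsewhere. Less RNA per cell and fewer cells of a type cannot be told apart in such bulk samples.

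Of the 3 genes, Pp3c7_700 was called at every time and both temperatures, whereas Pp3c12_18200 and Pp3c13_19370 were called at 37 °C and not at 30 °C. The calls of Pp3c7_700 at 30 °C 6 h and 12 h were lost in some other fits, as given below. Pp3c13_19370 at 30 °C 1 h missed the size limit alone (log2 fold change 0.74, adjusted p = 0.0039, edgeR). After 1 h at 37 °C all 3 were higher than at 24 °C. By 24 h at 37 °C, Pp3c12_18200 was lower than at 24 °C and Pp3c7_700 was still higher. The levels are shown first for the polyubiquitin gene and then for the ligase-type genes.

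**Figure D1:**
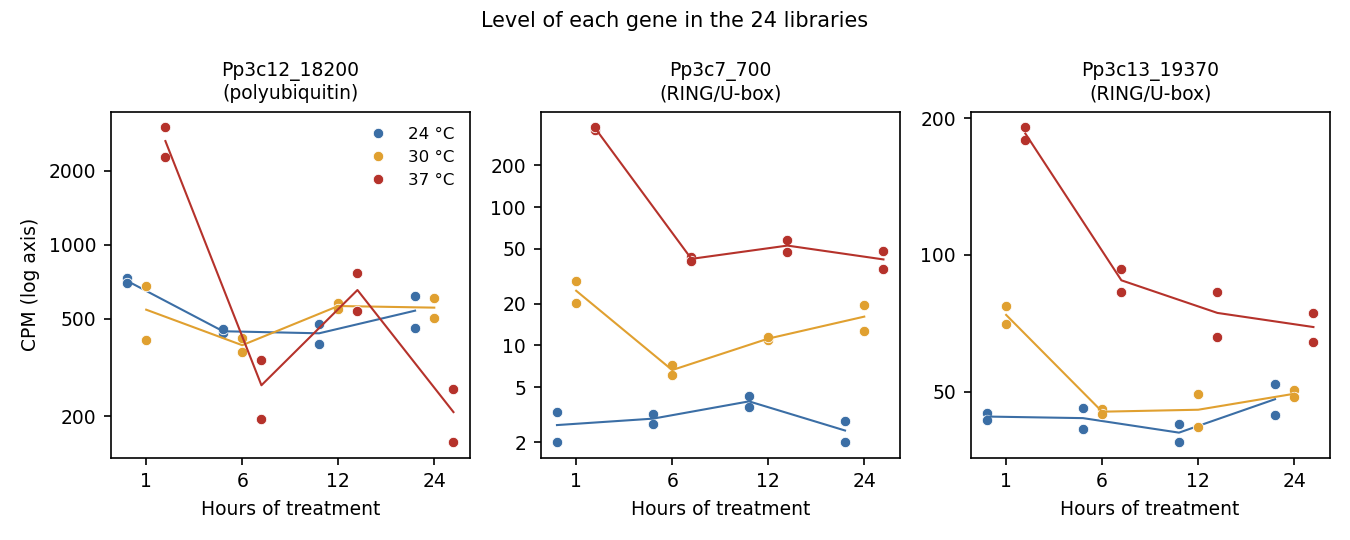
CPM (log axis) of the 3 genes in each of the 24 libraries against hours of treatment, with points for libraries and lines through the means of the 2 replicates. Pp3c7_700 keeps the order 37 °C, 30 °C, 24 °C at all 4 times, whereas for Pp3c12_18200 the 37 °C libraries lie above the others at 1 h and below them at 6 h and 24 h.

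At 24 °C, Pp3c12_18200 had 730 and 695 CPM in the 2 libraries at 1 h, 435 and 453 CPM at 6 h, 477 and 394 CPM at 12 h, and 618 and 459 CPM at 24 h. At 30 °C it had 677 and 410 CPM at 1 h, 415 and 364 CPM at 6 h, 580 and 545 CPM at 12 h, and 606 and 502 CPM at 24 h. At 37 °C it had 3008 and 2277 CPM at 1 h, 340 and 195 CPM at 6 h, 770 and 537 CPM at 12 h, and 259 and 157 CPM at 24 h. Both libraries of 37 °C 1 h lay above all the others, and both libraries of 37 °C 24 h lay below every library at 24 °C. At 37 °C the 12 h libraries lay above both the 6 h and the 24 h libraries.

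Against 24 °C of the same time, Pp3c12_18200 rose by 3.71-fold after 1 h at 37 °C (log2 fold change 1.89, standard error 0.29, adjusted p = 7.2e-05, edgeR). After 6 h its log2 fold change was -0.73 (standard error 0.29, adjusted p = 0.041, edgeR), which is under the size limit, and after 12 h it was 0.58 (standard error 0.28, adjusted p = 0.09, edgeR). After 24 h it fell by 1.37 on the log2 scale (standard error 0.29, adjusted p = 0.00065, edgeR). With limma's treat, which asks for a change of more than 1, that call was lost (-1.40, adjusted p = 0.32). At 30 °C the log2 fold changes were -0.39, -0.19, 0.37 and 0.04 at 1, 6, 12 and 24 h, with adjusted p between 0.46 and 0.93 (edgeR), and none passed. Set directly against 30 °C, the 37 °C libraries were higher by 2.28 on the log2 scale at 1 h (adjusted p = 3.4e-05, edgeR) and differed by -1.41 at 24 h (adjusted p = 0.00065, edgeR), while the differences of -0.54 at 6 h and 0.22 at 12 h did not pass. In the untreated cultures the later times lay at -0.68 (6 h), -0.71 (12 h) and -0.40 (24 h) against 1 h on the log2 scale, and none passed (adjusted p from 0.077 to 0.43, edgeR). With replicate number added to the model, the values at 6 h and 12 h were -0.68 and -0.72 (adjusted p = 0.012 and 0.0082, edgeR). They then missed the size limit alone, so a steady control level is not shown for this gene. Without replicate 1 of 37 °C 6 h the change at 6 h became -1.19 and passed (adjusted p = 0.0088, edgeR).

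The study's tables give a polyubiquitin name to 2 more genes, Pp3c19_8830 and Pp3c25_6580, and such genes can be so alike that reads of one are counted for another. Like Pp3c12_18200, both rose after 1 h at 37 °C, Pp3c19_8830 from 281 ± 35.9 to 2830 ± 44.4 CPM (SD, n = 2) and Pp3c25_6580 from 168 ± 29.3 to 1077 ± 411 CPM (SD, n = 2). Their log2 fold changes were 3.33 (standard error 0.27, adjusted p = 5.6e-08, edgeR) and 2.68 (standard error 0.43, adjusted p = 9.6e-05, edgeR). After 24 h the 3 genes stood apart in direction. At 37 °C, Pp3c19_8830 was higher than at 24 °C by 1.19 (adjusted p = 0.00074, edgeR), Pp3c12_18200 was lower, and Pp3c25_6580 was at -0.09 (adjusted p = 0.86, edgeR). At 30 °C, Pp3c19_8830 rose by 1.41 and Pp3c25_6580 by 2.13 (adjusted p = 0.00044 and 0.00091, edgeR), beside the 0.04 of Pp3c12_18200. Pp3c19_8830 also rose by 1.20 after 12 h at 37 °C. The difference between the genes was not itself tested.

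Because reads may be shared among the copies, the counts of the 3 polyubiquitin genes were also added. The sum rose by 5.64-fold after 1 h at 37 °C (log2 fold change 2.50, standard error 0.26, adjusted p = 9e-07, edgeR). After 24 h at 37 °C the sum was 876 and 572 CPM against 930 and 695 CPM at 24 °C, a log2 fold change of -0.17 that did not pass (adjusted p = 0.58, edgeR), so that the fall of Pp3c12_18200 is not seen in the sum. At 30 °C 24 h the sum was at 0.81 (adjusted p = 0.017, edgeR), under the size limit. Of the summed counts, with no allowance for gene length, Pp3c12_18200 made up 66.4% and 66.0% at 24 °C 24 h and 29.5% and 27.5% at 37 °C 24 h. In the control cultures this share was 64.4% and 58.4% at 1 h, 41.8% and 40.6% at 6 h, and 48.8% and 46.3% at 12 h, so it also moved with time at 24 °C. At each of the 4 times, both 37 °C libraries and both 30 °C libraries had a lower share than both 24 °C libraries. No test was run on the shares, which are given as a description.

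**Figure D2:**
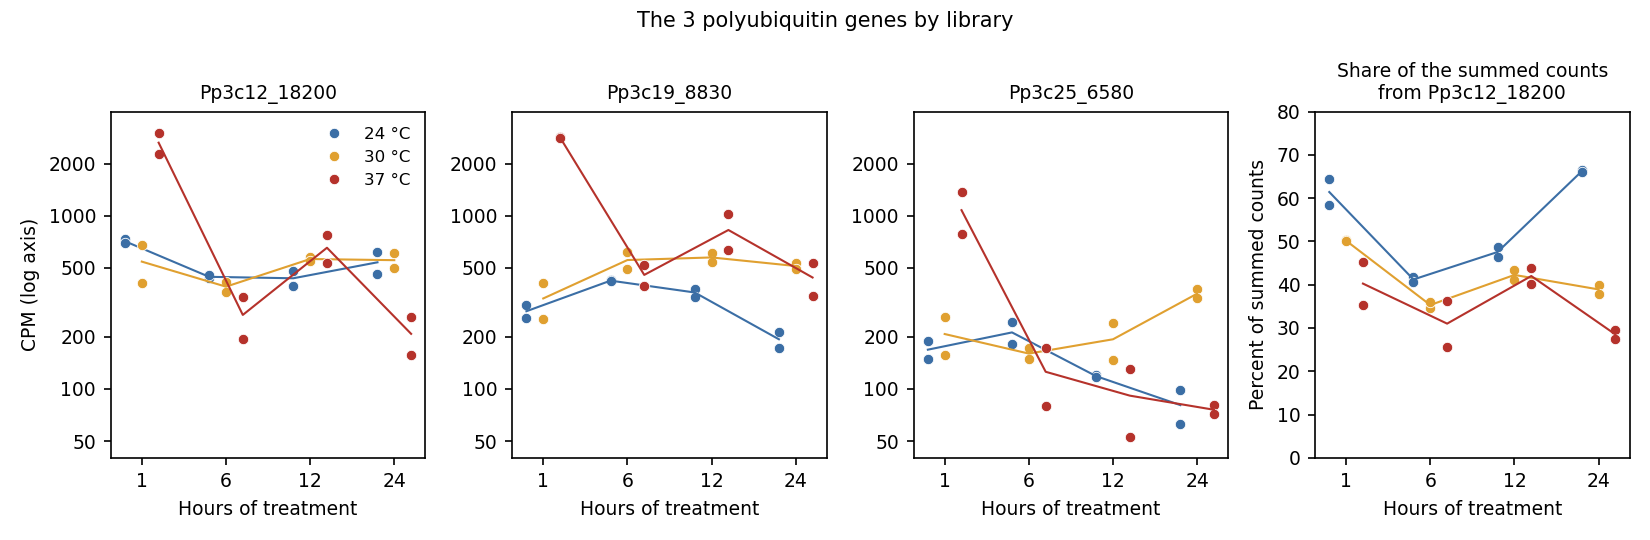
CPM (log axis) of the 3 polyubiquitin genes in each library, and the percent of their summed counts that came from Pp3c12_18200, against hours of treatment. Points are libraries and lines join the means of 2 replicates. All 3 genes peak after 1 h at 37 °C, and at 24 h the share of Pp3c12_18200 is 66.4% and 66.0% at 24 °C and 29.5% and 27.5% at 37 °C.

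Pp3c7_700, the PRT1-like RING/U-box gene, was close to the lower end of detection in the control cultures. At 24 °C it had 3.31 and 2.00 CPM at 1 h, 3.20 and 2.71 CPM at 6 h, 3.56 and 4.32 CPM at 12 h, and 2.85 and 2.00 CPM at 24 h, which are between 9 and 44 reads a library. At 30 °C it had 29.4 and 20.3 CPM at 1 h, 7.19 and 6.08 CPM at 6 h, 10.9 and 11.5 CPM at 12 h, and 19.6 and 12.7 CPM at 24 h. At 37 °C it had 362 and 378 CPM at 1 h, 43.4 and 41.1 CPM at 6 h, 57.7 and 47.7 CPM at 12 h, and 48.0 and 35.7 CPM at 24 h. Every library at 37 °C lay above every library at 30 °C, and every library at 30 °C lay above every library at 24 °C, at whatever time.

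After 1 h at 37 °C the level of Pp3c7_700 was 138-fold that at 24 °C (log2 fold change 7.11, standard error 0.29, adjusted p = 1.7e-11, edgeR). By fold change it ranked 103 of the 21429 genes tested in that comparison. The gene stayed up at 6, 12 and 24 h, with log2 fold changes of 3.83, 3.74 and 4.07 (standard errors 0.26, 0.25 and 0.29, adjusted p from 3.5e-09 to 8.9e-09, edgeR). At 30 °C the gene rose by 3.21 at 1 h and by 2.69 at 24 h (standard errors 0.29 and 0.30, adjusted p = 2e-06 and 3.5e-06, edgeR). Between these times it rose by 1.16 at 6 h and by 1.50 at 12 h (standard errors 0.29 and 0.26, adjusted p = 0.042 and 0.0027, edgeR). The call at 30 °C 6 h was lost when any 1 of its 4 libraries was left out (1.03 to 1.28) and with limma-voom (1.14, adjusted p = 0.13, eBayes). That at 30 °C 12 h was lost without replicate 1 of 24 °C 12 h (1.37). Both calls were also lost with limma's treat (1.14 and 1.50).

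The 37 °C libraries of Pp3c7_700 were higher than the 30 °C libraries by 3.90, 2.67, 2.23 and 1.39 on the log2 scale at 1, 6, 12 and 24 h (adjusted p from 1.2e-08 to 6e-05, edgeR). The control cultures at 6, 12 and 24 h differed from those at 1 h by log2 values of 0.15, 0.56 and -0.10, and none passed (adjusted p from 0.23 to 0.93, edgeR). The fold between the 2 heat treatments was thus 14.9 at 1 h and 2.61 at 24 h, a narrowing that was not itself tested, while the level at 30 °C went from 24.8 ± 6.45 CPM at 1 h through 6.63 ± 0.782 CPM at 6 h to 16.1 ± 4.88 CPM at 24 h (SD, n = 2).

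Pp3c13_19370, the RING1-like gene, moved over a narrower range. At 24 °C it had 44.9 and 43.2 CPM at 1 h, 41.3 and 46.1 CPM at 6 h, 42.5 and 38.7 CPM at 12 h, and 51.9 and 44.3 CPM at 24 h. At 30 °C it had 77.2 and 70.3 CPM at 1 h, 45.7 and 44.6 CPM at 6 h, 49.5 and 41.7 CPM at 12 h, and 50.3 and 48.6 CPM at 24 h. At 37 °C it had 191 and 179 CPM at 1 h, 82.9 and 92.9 CPM at 6 h, 82.9 and 66.1 CPM at 12 h, and 74.5 and 64.2 CPM at 24 h. All 8 libraries at 37 °C and both libraries of 30 °C 1 h lay above all 8 libraries at 24 °C, while the later 30 °C libraries overlapped the controls.

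At 37 °C, Pp3c13_19370 rose by 4.19-fold at 1 h (log2 fold change 2.07, standard error 0.14, adjusted p = 8.5e-09, edgeR) and by 2.01-fold at 6 h (log2 fold change 1.01, standard error 0.14, adjusted p = 1.5e-05, edgeR). Its later log2 fold changes, 0.87 after 12 h and 0.53 after 24 h, had adjusted p of 4.9e-05 and 0.0042 (edgeR) and fell short of the size limit. At 30 °C its log2 fold change was 0.74 after 1 h (adjusted p = 0.0039, edgeR), again under that limit, and of 0.05, 0.17 and 0.04 later (adjusted p from 0.53 to 0.91, edgeR). The 37 °C libraries exceeded the 30 °C libraries by 1.33 at 1 h (adjusted p = 4.2e-06, edgeR), and the differences of 0.96, 0.70 and 0.49 at 6, 12 and 24 h were under the size limit. The control cultures differed by -0.01, -0.12 and 0.13 from their 1 h level, with adjusted p from 0.59 to 0.97 (edgeR). The value at 37 °C 6 h sits at the size limit, and with limma's treat it was not called (1.01). It became 0.93 without replicate 1 of 24 °C 6 h and 0.92 without replicate 2 of 37 °C 6 h. At 12 h it became 1.03 and passed without replicate 2 of 37 °C 12 h (adjusted p = 4.1e-05, edgeR).

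**Figure D3:**
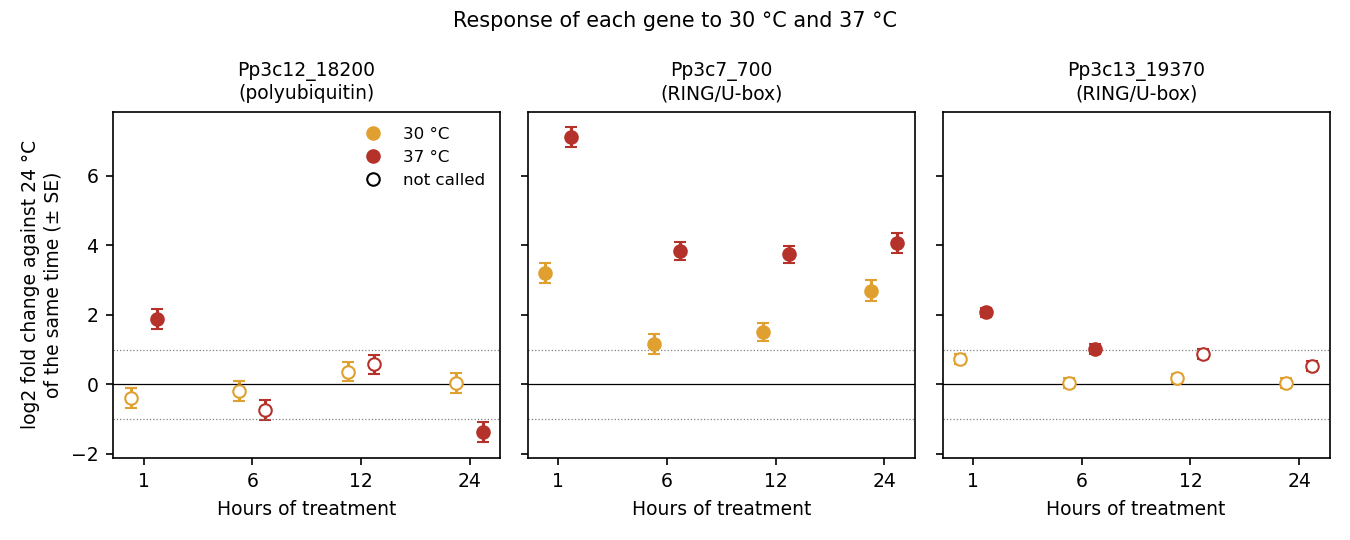
Log2 fold change against 24 °C of the same time (points, with bars for ± 1 standard error from the model) for the 3 genes after 1, 6, 12 and 24 h at 30 °C or 37 °C. Filled points passed both limits, open points did not, and dotted lines mark the size limit of 1. Pp3c7_700 has 8 filled points with a top of 7.11, Pp3c13_19370 has 2, and Pp3c12_18200 has 1 above and 1 below zero.

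These calls are to be read beside the share of all tested genes that were called the same way. At 37 °C, the share of genes that rose was 12.7%, 13.8%, 16.7% and 18.0% after 1, 6, 12 and 24 h, and 19.5% fell after 24 h. At 30 °C, it was 2.46%, 0.658%, 1.61% and 9.30% after the same times, and 9.41% fell after 24 h. Between 37 °C and 30 °C, 13.6%, 23.5%, 27.6% and 29.0% of genes differed at 1, 6, 12 and 24 h. The study had listed all 3 genes for their rise at 37 °C 1 h, and so nothing is read from their calls there beside the 12.7%. The 30 °C 1 h comparison uses the same 24 °C 1 h libraries, so its calls are not independent of that choice. Of the 3 genes Pp3c7_700 alone was called at 30 °C, where a smaller share of genes rose than at 37 °C at each time. Among all genes, the log2 fold change of Pp3c7_700 was at or above the 94.2 percentile in all 8 comparisons, that of Pp3c13_19370 lay between the 48.6 and 91.2 percentiles, and that of Pp3c12_18200 between the 17.5 and 90.3 percentiles.

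Which responses weakened with time was asked by comparing the response to heat, that is the log2 fold change against 24 °C, at each later time with that at 1 h. At 37 °C the response of Pp3c7_700 was lower than at 1 h by -3.28 at 6 h, -3.37 at 12 h and -3.04 at 24 h (standard errors 0.40, 0.38 and 0.45, adjusted p from 4.2e-06 to 4.8e-05, edgeR). For Pp3c12_18200 these differences were -2.62, -1.31 and -3.26 (adjusted p = 0.00013, 0.017 and 9.2e-06, edgeR), and for Pp3c13_19370 they were -1.06, -1.19 and -1.54 (adjusted p = 0.00061, 0.00016 and 1.2e-05, edgeR). All 9 passed, and across all tested genes 23.1%, 27.9% and 31.0% changed their response in either direction at 6, 12 and 24 h. Nothing is read from that contrast of shares, because the 3 genes were listed for being up at 37 °C 1 h and that group enters each of these differences. With library totals in place of TMM scaling, 4 of the 9 lost their call, which were those of Pp3c13_19370 (-0.66, -0.74 and -0.91) and that of Pp3c12_18200 at 12 h (-0.86). The latter was also lost without replicate 2 of 24 °C 1 h (-1.27), replicate 1 of 24 °C 12 h (-1.16), replicate 1 of 37 °C 1 h (-1.09) and replicate 2 of 37 °C 12 h (-1.07), each in turn. That of Pp3c13_19370 at 6 h was at -0.98, under the size limit, when either replicate 2 of 24 °C 6 h or, separately, replicate 1 of 37 °C 6 h was left out. At 30 °C, where 0.663%, 1.67% and 12.3% of genes changed their response, the response of Pp3c7_700 was lower by -2.05 at 6 h and -1.71 at 12 h (adjusted p = 0.038 and 0.036, edgeR). Its response at 24 h differed from that at 1 h by -0.53 (adjusted p = 0.46, edgeR). The other genes passed in none of the 30 °C comparisons. The controls changed in 13.8%, 14.1% and 3.74% of genes at 6, 12 and 24 h against 1 h, and none of the 3 genes was among these. The 30 °C differences of Pp3c7_700 lost their call in 7 of 8 fits that left out 1 library, with ranges of -2.47 to -1.74 at 6 h and -2.12 to -1.40 at 12 h.

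Ordered by level, the 12 groups fell into a different sequence for each gene. For Pp3c7_700 the order ran from 37 °C 1 h (370 ± 11.3 CPM, SD, n = 2) through the other 37 °C groups (41.9 to 52.7 CPM), the 30 °C groups at 1, 24, 12 and 6 h (24.8, 16.1, 11.2 and 6.63 CPM) and the 24 °C groups (2.43 to 3.94 CPM). In that order the only neighbours whose libraries overlapped were 37 °C 6 h and 24 h, and, among the controls, 6 h and 1 h and then 1 h and 24 h. For Pp3c13_19370, 37 °C 1 h (185 ± 8.31 CPM) stood clear of 37 °C 6 h (87.9 ± 7.08 CPM), and 37 °C 6 h, 37 °C 12 h, 30 °C 1 h and 37 °C 24 h each overlapped the next. A gap followed, and the last 7 groups, from 49.4 to 40.6 CPM, each overlapped their neighbours. For Pp3c12_18200, 37 °C 1 h (2642 ± 516 CPM) was followed by the control at 1 h (713 ± 24.4 CPM), and the lowest groups were 37 °C 6 h (267 ± 102 CPM) and 37 °C 24 h (208 ± 71.6 CPM), which overlapped each other and no other group. From highest to lowest group mean, the range was 152-fold for Pp3c7_700, 12.7-fold for Pp3c12_18200 and 4.56-fold for Pp3c13_19370.

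The wider ubiquitin system was described with 27 genes that carry such names in the study's tables, including the 3 above. Most of these tables hold genes that the study called up at 37 °C 1 h, so the rise of the 27 genes in that comparison is no independent evidence. All 27 rose there, with a median log2 fold change of 2.73 against 0.00 over all genes tested. The 30 °C 1 h comparison uses the same 24 °C 1 h libraries as those calls of the study. The other counts below are also of genes picked for a heat response in these data. Nothing is therefore read from their distance to the values over all genes. At 37 °C, 13 rose at 6 h, 14 at 12 h and 8 at 24 h, with medians of 0.97, 1.14 and 0.79 against 0.00, 0.03 and 0.08 over all genes, and 1 fell at 24 h, which was Pp3c12_18200. Of all genes tested, 13.8%, 16.7% and 18.0% rose at these times and 19.5% fell at 24 h. At 30 °C, 10, 1, 2 and 4 of them rose after 1, 6, 12 and 24 h, with medians of 0.85, 0.16, 0.14 and 0.04 against 0.00, -0.01, -0.01 and 0.07 over all genes, and 3 fell after 24 h. The shares of all genes that rose were 2.46%, 0.658%, 1.61% and 9.30%, and 9.41% fell after 24 h, so that the 4 and 3 of 27 genes at 24 h lie near the background. The single call at 30 °C 6 h was Pp3c7_700.

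Among the 8 genes with a RING or U-box name, the number that rose at 37 °C was 8, 4, 4 and 1 at the 4 times in turn, and the last was Pp3c7_700. The matching shares of all genes were 12.7%, 13.8%, 16.7% and 18.0%, and the single gene at 24 h is no more than that background. The 6 others had log2 fold changes at 37 °C 1 h between 1.50 and 3.21, and the 2.07 of Pp3c13_19370 lay within that range. The highest of the 6 was Pp3c10_2570, whose Arabidopsis match is CHIP, a U-box ligase that works with HSP70 chaperones, and it was at -0.72 after 6 h (adjusted p = 0.017, edgeR). The lowest was Pp3c16_2890, matched to Hrd1A, a ligase of protein quality control at the endoplasmic reticulum, which was under the size limit at every other time. Pp3c25_1090 rose by 1.85, 1.16 and 1.14 at 37 °C 1, 6 and 12 h, and Pp3c25_5890, with a RING/FYVE/PHD name, by 2.16, 1.44 and 1.34. Pp3c25_1090 is counted here for its MIZ/SP-RING name alone and is not read as a ubiquitin ligase. Pp3c15_2690, matched to SDIR1, a ligase of abscisic acid signalling in Arabidopsis, rose by 2.09 at 1 h and 1.15 at 12 h, and Pp3c10_8120, with a protease-associated and RING domain, by 1.78 at 1 h alone. At 30 °C, Pp3c10_2570 rose by 1.04 at 1 h (adjusted p = 0.0094, edgeR), and the other 5 passed at no time.

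In the other groups, the 2 ubiquitin-like genes both rose at 37 °C 1 h and 24 h and at 30 °C 1 h. Of all genes tested, 12.7%, 18.0% and 2.46% rose in these comparisons. The genes of these groups came from tables most of which hold genes the study called up at 37 °C 1 h, so nothing is read from their calls there. The SUMO-like Pp3c6_10360, for a modifier related to ubiquitin, reached 2.89 (standard error 0.15, adjusted p = 2.6e-10, edgeR) at 37 °C 1 h, and the smallest call was 1.09 for Pp3c1_29440 at 37 °C 6 h. The 2 genes named for activation and conjugation rose at 37 °C 1 h and at no later time, and Pp3c27_3040, matched to the ubiquitin-binding sorting protein ELC, had its highest call there (3.55) and its lowest call at 30 °C 1 h (1.11). This group rests on names alone, and with that match the calls of Pp3c27_3040 are not read as those of an E1 or E2. Of the 10 F-box genes, 10, 7, 6 and 3 rose at 37 °C 1, 6, 12 and 24 h, beside 12.7%, 13.8%, 16.7% and 18.0% of all genes, with extremes of 4.39 for Pp3c1_22950 at 37 °C 24 h and -1.61 for Pp3c18_21550 at 30 °C 24 h. The 24 °C level of Pp3c1_22950 was 2.19 CPM at 24 h (8 and 14 reads), beside 31.4 and 37.8 CPM at 6 and 12 h. Its 37 °C level was 143 CPM at 6 h and 43.8 CPM at 24 h. Of the 2 protease genes, 2, 1, 2 and 1 rose at 37 °C 1, 6, 12 and 24 h, beside the same shares of all genes. The OTU-type protease gene Pp3c13_8540, of a family that removes ubiquitin, rose by 2.73 at 37 °C 1 h and fell by 2.06 at 30 °C 24 h (adjusted p = 2.2e-07 and 9.3e-06, edgeR). The other protease gene was at 0.64 at 30 °C 24 h, where 9.41% of all genes fell, and at 2.32 at 37 °C 24 h.

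**Figure D4:**
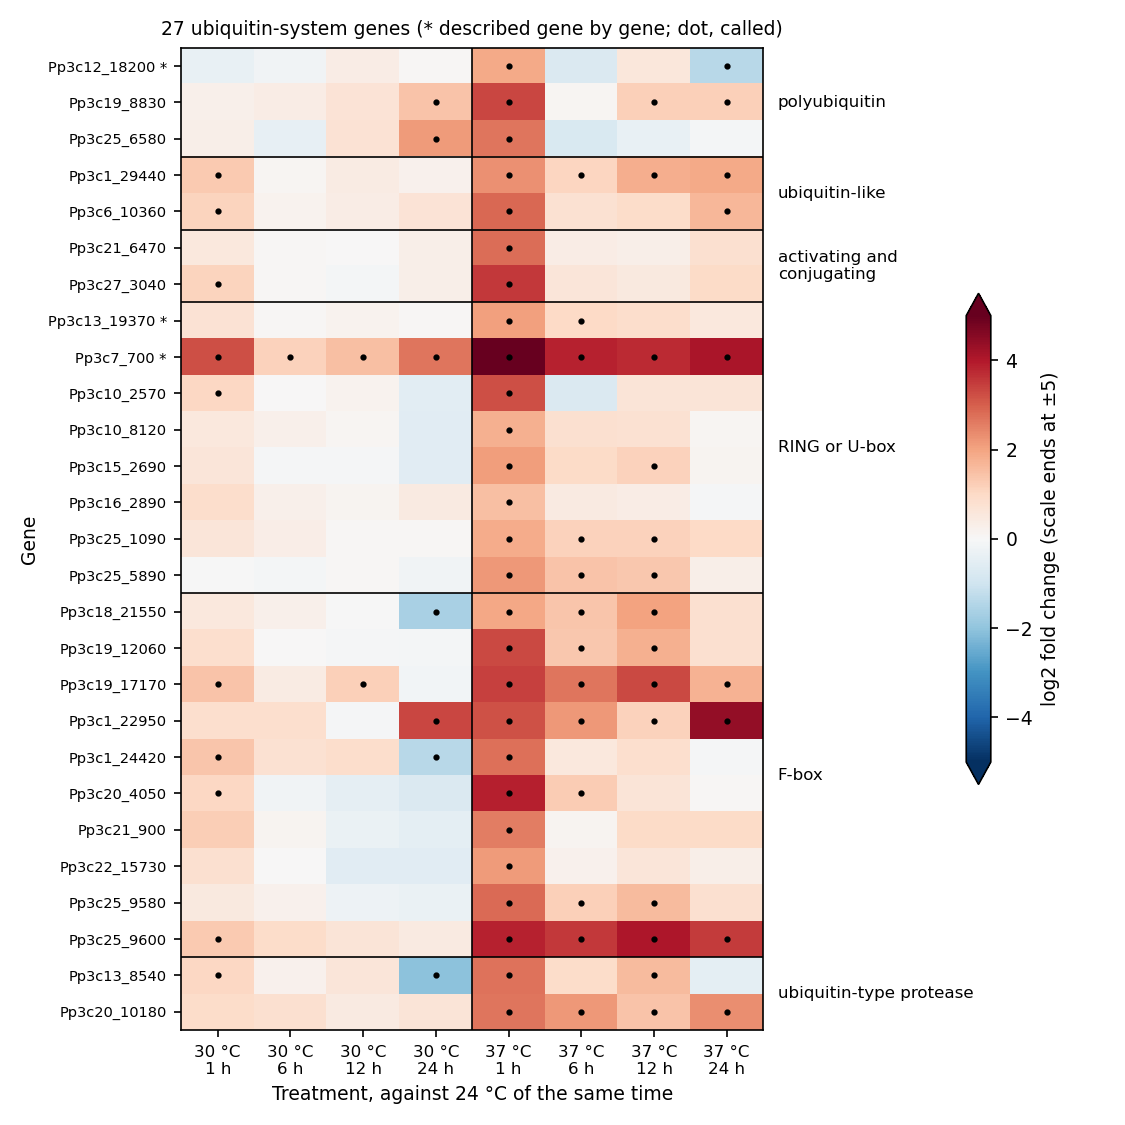
Log2 fold change against 24 °C of the same time (colour, scale ending at 5 in either direction) for the 27 ubiquitin-system genes in the 8 heated comparisons, grouped by name, with a dot where a gene passed both limits. The column of 37 °C 1 h has 27 dots, the column of 30 °C 6 h has 1, and Pp3c7_700 is the gene with a dot in all 8 columns.

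The site table from which the sequences above were taken holds 49 genes, which the study had grouped by their shared expression in these libraries. All 49 rose at 37 °C 1 h and 32 rose at 30 °C 1 h, with medians of 3.58 and 1.60. Over all genes tested, 12.7% and 2.46% rose and both medians were 0.00, and nothing is read from the difference, since the grouping used these libraries. Ranked by fold change within the 49, Pp3c7_700 was number 5 and Pp3c13_19370 number 44 at 37 °C 1 h, and over the 8 comparisons the first ranked from 5 to 12 and the second from 41 to 49. The highest log2 fold change in it at 37 °C 1 h was 14.52 and the lowest 1.69.

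For each gene, the 5 genes whose log2 CPM followed it most closely over the 24 libraries were taken from 17189 genes by Pearson's r. The libraries share the 3 temperatures and 4 times, so these values describe a shared course and no more. For Pp3c7_700 they were Pp3c5_5410 (r = 0.98), Pp3c16_11760, with an endoplasmic reticulum vesicle transporter name (0.98), the DNAJ-type co-chaperone gene Pp3c20_14730 (0.97), Pp3c8_7208 (0.97) and Pp3c22_820, with an aldolase-type TIM barrel name (0.97). For Pp3c13_19370 they were Pp3c16_11750, a further vesicle transporter gene, the HSP20-like small heat shock gene Pp3c24_4390, Pp3c23_680 with an E1-E2 type ATPase name, Pp3c1_33430 and Pp3c11_22930 with an ARM repeat name, all at r = 0.96. Likeness of course is not likeness of size, since at 37 °C 1 h the log2 fold change was 2.07 for Pp3c13_19370, 10.70 for Pp3c24_4390 and 0.94 for Pp3c1_33430. For Pp3c12_18200 the values were lower, with Pp3c11_25550 and Pp3c2_16830 at 0.87, the DNAJ gene Pp3c15_3820 and Pp3c5_15710 at 0.83, and Pp3c8_15470 at 0.82. Among the 3 genes themselves r was 0.92 between Pp3c7_700 and Pp3c13_19370, 0.51 between Pp3c12_18200 and Pp3c13_19370, and 0.38 between Pp3c12_18200 and Pp3c7_700.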

How the data were processed

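The authors made poly(A)-selected, strand-specific libraries, sequenced them as pairs of 100-base reads, demultiplexed with bcl2fastq 1.8.4, aligned with BWA-MEM 0.7.17.1 to the *P. patens* genome and counted reads over whole genes with featureCounts at default settings, as the paper's methods and the submitters' processing notes say. The deposited values are raw counts per gene for 32926 genes. Counts over whole genes include introns and ignore strand.

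Differential expression was tested with edgeR 4.0.16 (R 4.3.3), after removal of genes that did not exceed 0.5 CPM in 2 or more libraries, which left 21429. A quasi-likelihood model with TMM scaling and 12 groups was fitted to the 24 libraries together. The standard error is the log2 fold change divided by the square root of F. Adjusted p-values are Benjamini-Hochberg over all tested genes of a comparison. The replicates are biological by the study's account. Each p-value weighs a difference between groups against the spread between replicates, estimated over the 12 groups together. A group whose replicates differed more than those of the others was therefore judged by this shared spread. Likeness of course used log2 CPM with a prior count of 2, for genes with a mean of at least 1. The named genes are the 3 genes, the other polyubiquitin genes, all RING or U-box genes of the list, the highest and lowest call of each other list, and the 5 most similar genes. The members and lists were chosen with earlier results of these data known. Names and site sequences come from the study's supplementary tables. The genes of the site table and of the ubiquitin-system lists were also taken from those tables, which rest on these same data. RefSeq identifiers matched none of the gene identifiers, so gene lengths, coordinates, proteins and promoters are not used here. The procedure was tested on simulated data. Alternatives used limma 3.58.1, DESeq2 1.42.0, other scalings, filters and samples.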

Additional observations from a re-analysis of the deposited data

Results flagged for a closer look

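A response was picked out where the change against 24 °C differed between 1 h and a later time by the interaction test of edgeR, with both limits passed. At 37 °C this held for Pp3c12_18200, with differences of -2.62 at 6 h, -1.31 at 12 h and -3.26 at 24 h. It held for Pp3c7_700, with -3.28, -3.37 and -3.04, and for Pp3c13_19370, with -1.06, -1.19 and -1.54. At 30 °C it held for Pp3c7_700 at 6 h (-2.05) and 12 h (-1.71). All of these genes were listed for being up at 37 °C 1 h. That group enters each 37 °C difference, so a lower later response was favoured in advance. Of all genes, 23.1%, 27.9% and 31.0% changed their response at 37 °C 6, 12 and 24 h. With library totals the 37 °C differences of Pp3c13_19370 and that of Pp3c12_18200 at 12 h lost their call. Those at 30 °C lost it in 7 of 8 fits without 1 library. With 2 libraries a group, no group could be examined for a single outlying sample.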

How the results depend on the processing

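Each of the 63 results for the 3 genes (21 comparisons each) was recomputed. Of 549 values from other settings, 519 kept direction and call, 27 lost the call and 3 changed sign, all 3 in results that had not passed. RLE scaling, DESeq2, a stricter filter of 1 CPM and the replicate block changed no call. Library totals in place of TMM shifted the median of all genes by -0.47 at 37 °C 1 h and by 0.22 at 30 °C 24 h, and for Pp3c13_19370 the value at 37 °C 6 h became 0.93, that of 37 °C against 30 °C at 1 h 0.95, and the differences in response at 37 °C -0.66, -0.74 and -0.91, none of them a call. Also with totals, the difference in response at 12 h became -0.86 for Pp3c12_18200 at 37 °C and -1.49 for Pp3c7_700 at 30 °C, both without a call, and the control changes of Pp3c13_19370 became 0.12 at 6 h and 0.11 at 12 h. Without a filter on low counts the difference in response of Pp3c13_19370 at 37 °C 6 h was -1.00 after rounding and under the size limit. In a fit of only the 4 libraries compared, Pp3c7_700 at 30 °C 6 h was at 1.18 (adjusted p = 0.081, edgeR). With the 3 polyubiquitin genes summed, the values were 0.04 at 30 °C 6 h, -0.17 at 37 °C 24 h and -0.97 for 37 °C against 30 °C at 24 h.

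The paper names the eBayes and treat functions of limma for its own calls. Its 53 and 820 genes at 30 °C 1 h and 24 h equal the treat counts given below. Limma-voom with treat asks for a change of more than 1 on the log2 scale, and 13 results lost their call under it with little change in value. For Pp3c7_700 they were 30 °C 6 h (1.14), 30 °C 12 h (1.50), 37 °C against 30 °C at 24 h (1.42) and the differences in response at 30 °C (-2.05 at 6 h, -1.69 at 12 h). For Pp3c13_19370 they were 37 °C 6 h (1.01), 37 °C against 30 °C at 1 h (1.33) and the differences in response at 37 °C (-1.06, -1.20 and -1.54). For Pp3c12_18200 they were 37 °C 24 h against 24 °C (-1.40) and against 30 °C (-1.45) and the difference in response at 37 °C 12 h (-1.31). The adjusted p of these 3 were 0.32, 0.35 and 0.77 (limma treat). With eBayes, Pp3c7_700 lost 30 °C 6 h (1.14) and the differences in response at 30 °C (-2.05 and -1.69, adjusted p = 0.13 and 0.12, limma). Genes called at 30 °C 1, 6, 12 and 24 h numbered 757, 239, 570 and 4008 with edgeR and 53, 2, 14 and 820 with treat, and at 37 °C 5013, 6714, 7593 and 8049 against 1203, 2492, 3520 and 3727. At 37 °C 1 h, a fit of 4 libraries called 3259. With library totals the share of calls that rose went from 69.7% to 54.6% at 30 °C 1 h, from 60.4% to 76.2% at 30 °C 12 h, from 49.7% to 67.2% at 30 °C 24 h and from 54.3% to 27.3% at 37 °C 1 h.

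Leaving out 1 library at a time gave 324 values, of which 283 kept direction and call. The sample left alone in its group is assumed to vary like the other groups. The call of Pp3c7_700 at 30 °C 6 h was lost without any 1 of its 4 libraries (1.03 to 1.28), and that at 30 °C 12 h without replicate 1 of 24 °C 12 h (range 1.37 to 1.65, lowest without it). Its differences in response at 30 °C were lost without any library except replicate 2 of 30 °C 1 h (-2.47 to -1.74 at 6 h, -2.12 to -1.40 at 12 h). For Pp3c13_19370, 37 °C 6 h (0.92 to 1.09) was lost without replicate 1 of 24 °C 6 h (0.93) and without replicate 2 of 37 °C 6 h (0.92), and its difference in response at 37 °C 6 h (-1.15 to -0.98) without replicate 2 of 24 °C 6 h and without replicate 1 of 37 °C 6 h (-0.98 in both). Calls were gained at 37 °C 12 h (0.70 to 1.03) without replicate 2 of 37 °C 12 h and for 37 °C against 30 °C at 6 h (0.88 to 1.04) without replicate 1 of 37 °C 6 h. For Pp3c12_18200, a call at 37 °C 6 h (-1.19 to -0.39) was gained without replicate 1 of 37 °C 6 h, and the difference in response at 37 °C 12 h (-1.59 to -1.07) was lost without replicate 2 of 24 °C 1 h (-1.27), replicate 1 of 24 °C 12 h (-1.16), replicate 1 of 37 °C 1 h (-1.09) and replicate 2 of 37 °C 12 h (-1.07), each in turn. Sign changed in 8 results that had not passed. For Pp3c12_18200 these were 30 °C 24 h (-0.16 to 0.27), 37 °C against 30 °C at 12 h (-0.07 to 0.45) and the difference in response at 30 °C 6 h (-0.11 to 0.61). For Pp3c7_700 they were the control changes at 6 h (-0.16 to 0.56) and 24 h (-0.41 to 0.31), and for Pp3c13_19370 30 °C 6 h (-0.03 to 0.13), 30 °C 24 h (-0.07 to 0.16) and the control change at 6 h (-0.09 to 0.07). The number of genes called fell to 373, 83 and 204 at 30 °C 1, 6 and 12 h in the lowest of these fits.

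Replicate numbers were examined as a possible pairing. Over 66 pairs of groups, deviations of same-numbered samples correlated between -0.19 and 0.33 with a median of 0.03. Of these pairs, 21 lay over 0.1 and 5 under -0.1. The numbers were not taken to pair the samples in the main fit. For Pp3c12_18200, however, replicate 1 lay above replicate 2 in every group except 24 °C 6 h. With the replicate block, Pp3c7_700 at 37 °C 1 h was at 7.13 (7.11 without it) and no call of the 3 genes changed. In the controls the 9 to 44 reads of Pp3c7_700 a library limit the precision of its fold changes.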
